A study of Homo sapiens with 4 samples.

Results

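The subunits of the respiratory chain were examined in RNA sequencing data of MM134 cells, which come from an invasive lobular carcinoma of the breast and express the estrogen receptor. Genes were chosen by symbol as structural subunits of complexes I to IV, together with the subunits of complexes I, III, IV and V that the mitochondrial genome encodes. This gave 80 of the 60675 genes in the tables, of which 67 are nuclear and 13 are mitochondrial. The nuclear members comprised 38 genes of complex I, 4 of complex II, 9 of complex III and 16 of complex IV, and the mitochondrial members 7 of complex I, 1 of complex III, 3 of complex IV and 2 of complex V. NDUFA4 was counted with complex I by its symbol, although it is now regarded as a subunit of complex IV. The nuclear subunits of complex V, the ATP synthase, and a list of 7 other nuclear subunits did not fall under the symbol rule. They are given at the end as separate lists.

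HER2 is a receptor tyrosine kinase, the product of ERBB2. The study compared a line with its wild-type form and a line with the kinase domain substitution L755S. Each line had 2 libraries, titled HER2 WT 1 and HER2 WT 2, and HER2 L755S 1 and HER2 L755S 2. All 4 libraries came from cells deprived of estrogen for 7 days in phenol red free medium with 5% charcoal-stripped serum, after growth in full serum to 70% confluence, so no library of cells with estrogen entered any comparison. The sources used here do not give how the lines were made or whether a line is 1 clone. Nothing in the labels says that a line was cultured separately for each library. The p-values therefore cover the spread among these 4 libraries alone, and that spread may be technical. What the number in a title stands for is likewise not stated. Both tables of number 2 are named as merged and what was combined is not given, so merging and number cannot be told apart.

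The respiratory chain passes electrons from NADH through complex I, or from succinate through complex II, to ubiquinone, then through complex III and cytochrome c to oxygen at complex IV. Complexes I, III and IV pump protons across the inner mitochondrial membrane, and complex V uses the gradient to make ATP. All of these except complex II are assembled from subunits of both genomes. Nuclear subunits are transcribed gene by gene in the nucleus and imported as proteins, whereas the mitochondrial subunits are cut from long transcripts of the circular mitochondrial DNA, separated by the removal of the tRNAs that lie between most of them.

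The total expected count was 27423247 to 31088422 per library. The 13 mitochondrial members took 3.84% (HER2 WT 1) and 3.47% (HER2 L755S 1) of all counts in the libraries numbered 1, and 7.44% (HER2 WT 2) and 11.3% (HER2 L755S 2) in those numbered 2. The libraries numbered 2 thus stood apart from those numbered 1 in both lines, and differences are given by line, by number, and within each. The nuclear members together took between 0.750% and 0.988%. In bulk libraries such as these, fewer cells that express a gene and less RNA per cell cannot be told apart. Each of the 10 luminal breast markers examined was detected, with a summed level of 8848 to 9720.2 CPM, counts scaled to the library total. Of 10 leukocyte markers 4 were at 0 in every library and the sum of the list was at most 1.08 CPM. Of 11 markers of fibroblasts and endothelium 3 were at 0 in every library, and COL1A1 (50.96 to 114 CPM) made up nearly all of their summed 54.9 to 115 CPM. In the model by number described further on, the 3 tested genes of that list were all called. COL1A1 was lower in number 2 (log2 fold change -0.97), with 50.96 and 58.4 CPM there. COL3A1, at most 0.031 CPM in number 1 and 1.82 and 1.25 CPM in number 2, was higher, as was COL1A2, at most 0.205 CPM in number 1 and 1.55 and 1.91 CPM in number 2. COL3A1 and COL1A2 were also called with GC offsets (adjusted p = 0.0043 and 0.019), COL1A1 was not (0.32), and their part in the differences by number was not tested.

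Of the 80 members, 75 passed the filter on low counts and were tested, 62 nuclear and all 13 mitochondrial. The other 5 were the COX4I2, COX6A2, COX7A1, COX7B2 and COX8C genes, which encode forms of complex IV subunits known from muscle, lung or testis. COX6A2 and COX7B2 had a count of 0 in every library, which allows up to 3 counts, or 0.0926 to 0.117 CPM, and the other 3 had at most 1 count. Their partners carried the signal, since COX4I1 stood at 145 to 245 CPM, COX6A1 at 201 to 337 CPM, COX7A2 at 170 to 284 CPM, COX7B at 74.5 to 227 CPM and COX8A at 67.1 to 182 CPM. COX6B2, the testis form of a subunit for which COX6B1 had 156 to 269 CPM, passed the filter at only 0.444 to 0.617 CPM.

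Per transcript length, in TPM, which is the scale for levels of different genes, the nuclear subunits differed by complex. The median of the tested nuclear genes' mean TPM over the 4 libraries was 180 for complex I (range 22.3 to 1798), 91.7 for complex II, 261 for complex III and 557 for complex IV. Among the nuclear genes of complex I, a pair on chromosome 11 had the highest mean levels over the 4 libraries. NDUFC2, an accessory subunit of the membrane arm (GRCh38 chromosome 11, 78068304 to 78080219), stood at 2894 TPM in HER2 WT 1, 1494 in HER2 WT 2, 1596 in HER2 L755S 1 and 1207 in HER2 L755S 2. NDUFV1, which binds NADH and the flavin at the tip of the matrix arm (chromosome 11, 67605653 to 67612554), stood at 1276, 664, 694 and 287 TPM in the same order. NDUFC2 was the highest nuclear gene of complex I in each library, whereas NDUFV1 lay below NDUFS5 (680 TPM) in HER2 WT 2 and below NDUFB1 (932 TPM), NDUFS5 (790 TPM) and others in HER2 L755S 2. The other 6 nuclear core subunits had mean levels of only 50.2 to 114 TPM. NDUFS8, which carries iron-sulfur clusters and begins 0.418 Mb from the end of NDUFV1, was among them with a mean of 104 TPM. The NDUFC2 gene also shares sequence with the read-through gene NDUFC2-KCTD14, which had 0.467 to 5.56 CPM against 726 to 1269 CPM for NDUFC2.

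**Figure D1:**
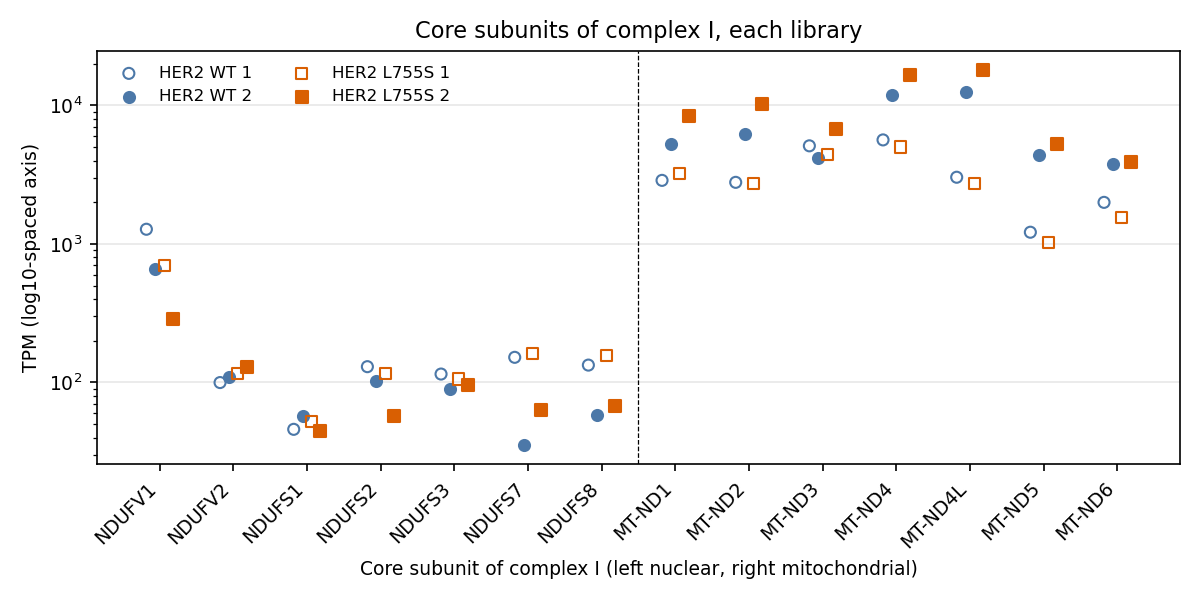
Levels of the 14 core subunits of complex I in TPM on a log axis, with a point for each library and the nuclear genes to the left of the dashed line. NDUFV1 lies at 287 to 1276 TPM, above the other nuclear core genes in each library, while the mitochondrial genes lie at 1023 TPM or above. In HER2 WT 1 NDUFV1 lies above MT-ND5 (1215 TPM).

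By mean level over the 4 libraries the mitochondrial members were the most abundant of the chain. In single libraries numbered 1 some nuclear genes lay above some of them. In HER2 WT 1 NDUFC2 lay above MT-ND1 (2878 TPM), MT-ND2, MT-CYB, MT-ND5 and MT-ND6, and NDUFV1 (1276 TPM) above MT-ND5 (1215 TPM). In HER2 L755S 1 NDUFC2 lay above MT-ND5 (1023 TPM) and MT-ND6, and COX6A1 (1234 TPM) also lay above MT-ND5. The mean levels of the 13 ran from 2815 TPM for MT-ND6 to 24509 TPM for MT-ATP8, with MT-CO1, MT-CO2 and MT-CO3, the catalytic core of complex IV, at 16363 to 19810 TPM. The value of MT-ATP8 rests on an effective length, the length RSEM divides by, of only 15.5 to 17.2 bases, so its TPM is far less certain than its count. In counts, MT-CO1 held 29.7% of the reads of the 13 genes in HER2 WT 1, 29.5% in HER2 WT 2, 29.8% in HER2 L755S 1 and 25.7% in HER2 L755S 2.

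The reading frames of some mitochondrial genes overlap, and 2 such stretches are shown. They were read from the mitochondrial chromosome of the GRCh38 reference on its plus strand, with the start codon of the downstream gene and the stop codon of the upstream gene in capitals. The first is chrM:8527-8572, shared by MT-ATP8 and MT-ATP6, and the second chrM:10760-10766, shared by MT-ND4L and MT-ND4. The overlap covers 22.2% of the 207 bases of MT-ATP8 and 2.36% of the 297 bases of MT-ND4L. Both MT-ATP8 and MT-ND4L had whole expected counts in every library, so no split of their reads between genes was seen. The count was not whole in 4 libraries for MT-ATP6 and in 1 for MT-ND4.
MT-ATP8/MT-ATP6: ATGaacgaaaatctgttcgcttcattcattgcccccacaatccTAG
MT-ND4L/MT-ND4: ATGcTAA
Whether counting used the strand is not stated. Reads of MT-ND6, the only member transcribed from the light strand, may therefore be mixed with those of the opposite strand. Copies of mitochondrial DNA in the nuclear genome share reads with the members. Of 297 such pseudogenes matched, 265 had no count in any library. In the order HER2 WT 1, HER2 WT 2, HER2 L755S 1, HER2 L755S 2, the 3 best counted had 430, 805, 410 and 1444 CPM for MTATP6P1, 326, 568, 314 and 1048 CPM for MTND2P28, and 49.3, 166, 55.5 and 260 CPM for MTCO1P12. Their order across libraries was close to that of MT-ATP6, MT-ND2 and MT-CO1.

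Between the lines, the nuclear subunits had mostly positive differences, but no member passed the test. The median log2 fold change, HER2 L755S over HER2 WT, was 0.32 over the 62 tested nuclear members, beside 0.00 over all 16538 tested genes. The median was 0.14 within number 1 (termed pair 1, HER2 L755S 1 over HER2 WT 1) and 0.53 within number 2 (pair 2). Of the 62, 50 had a positive value, against 50.3% of all tested genes. With the quasi-likelihood test of edgeR and Benjamini-Hochberg adjustment 0 of 75 members were called, where 0.738% of tested genes were called higher and 0.949% lower. At an unadjusted p under 0.05 there were 4 nuclear and 0 mitochondrial members, and DESeq2 and limma-voom also called 0. These tests had no term for the number, so differences by number counted as spread within the lines. A fit with the replicate number as a block did call nuclear members and is given near the end, since what the number stands for is not stated. In 28 nuclear members (45.2%) both HER2 L755S libraries lay above both HER2 WT libraries, against 16.9% of all tested genes, and in 3 (NDUFB9, SDHB and COX6B2) both lay below, or 4.84% against 19.3%.

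Below, the libraries of a line are given in the order of their numbers. In complex I, 34 of 38 nuclear genes had a positive difference between the lines, with a median of 0.34, and 18 of them did not overlap between the lines. Among the 7 core genes, which hold the flavin and the iron-sulfur clusters, 5 were positive and the median was 0.19. Among the 31 accessory genes, which surround the core, 29 were positive and the median was 0.38. The largest positive value was that of NDUFB1, an accessory subunit of the membrane arm, with 54.0 and 53.6 CPM in the HER2 WT libraries, against 65.5 and 111 CPM in those of HER2 L755S. Its log2 fold change was 0.71 (SE 0.35, adjusted p = 0.54). NDUFV1 had the largest negative value of all nuclear members, with 1070.2 and 582 CPM in the HER2 WT libraries, against 615 and 316 CPM in those of HER2 L755S. HER2 L755S 1 lay above HER2 WT 2, so the lines overlapped, while within each number the HER2 L755S library had the lower value, with a log2 difference of -0.80 in pair 1 and -0.88 in pair 2. The fold change of NDUFV1 was -0.83 (SE 0.40, adjusted p = 0.51). NDUFC2 was at 1269 and 756 CPM in the HER2 WT libraries, against 795 and 726 CPM in those of HER2 L755S, a log2 fold change of -0.41 (SE 0.32, adjusted p = 0.87). That value rested on HER2 WT 1, since without it the log2 fold change was 0.0055. Without HER2 L755S 1, NDUFV1 was called at a log2 fold change of -1.39 (adjusted p = 0.041), in a fit that called 1.89% of all genes lower.

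Complex II, the succinate dehydrogenase and the only complex with no mitochondrial subunit, had the median nearest to 0, at -0.08, with 1 of 4 genes positive. SDHC, a membrane anchor, was at 112 and 116 CPM in the HER2 WT libraries and 117 and 105 CPM in those of HER2 L755S. In the same order SDHB, the iron-sulfur subunit, stood at 84.1, 75.9, 74.7 and 71.1 CPM, with HER2 WT 2 just above HER2 L755S 1. SDHD, the other anchor, was at 31.4, 32.2, 29.9 and 41.6 CPM and SDHA, the flavoprotein, at 126, 106, 125 and 87.7 CPM. The log2 fold changes of these 4 genes lay between -0.13 and 0.17.

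Complex III, which passes electrons from ubiquinol to cytochrome c, had a median of 0.14 with 6 of 9 nuclear genes positive and 4 of them without overlap. UQCR11, a small accessory subunit (chromosome 19, 1597172 to 1605490), had 98.9 and 59.8 CPM in the HER2 WT libraries, against 126 and 153 CPM in those of HER2 L755S, so both HER2 L755S libraries were the higher. Its log2 fold change was 0.81 (SE 0.34, adjusted p = 0.41), with 0.35 in pair 1 and 1.35 in pair 2. UQCRQ, which lies close to cytochrome b, also did not overlap, at 137 and 104 CPM in the HER2 WT libraries, against 164 and 196 CPM in those of HER2 L755S. UQCRB, the most abundant nuclear gene of the complex by mean TPM, was at 292 and 489 CPM in the HER2 WT libraries, against 239 and 457 CPM in those of HER2 L755S, with log2 differences of -0.29 and -0.10 in the pairs. The electron carrier CYC1, cytochrome c1, was at 195 and 133 CPM in the HER2 WT libraries, against 140 and 111 CPM in those of HER2 L755S. It had a log2 fold change of -0.39 (adjusted p = 0.89).

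In complex IV, cytochrome c oxidase, 9 of 11 tested nuclear genes were positive, the median was 0.33, and 6 did not overlap with higher values in HER2 L755S. COX7B, a small subunit of the membrane part (chromosome X, 77899438 to 77907373), had the largest positive value and the lowest adjusted p of all members. It stood at 74.5 and 97.2 CPM in the HER2 WT libraries, against 116 and 227 CPM in those of HER2 L755S, and both HER2 L755S libraries lay above both HER2 WT libraries. Its log2 fold change was 1.00 (SE 0.37, adjusted p = 0.30), with 0.63 in pair 1 and 1.22 in pair 2, and without HER2 L755S 1 it was called at 1.40 (adjusted p = 0.0497). COX7C, another small subunit, was at 153 and 201 CPM in the HER2 WT libraries, against 225 and 396 CPM in those of HER2 L755S, a log2 fold change of 0.81 (SE 0.35, adjusted p = 0.43). COX6A1, the most abundant nuclear gene of the complex by mean TPM, was at 313 and 201 CPM in the HER2 WT libraries, against 337 and 310 CPM in those of HER2 L755S, and HER2 L755S 2 lay just below HER2 WT 1. COX6C had 157 and 172 CPM in the HER2 WT libraries, against 133 and 194 CPM in those of HER2 L755S.

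The nuclear members with a negative difference were mostly on chromosomes 1, 8 and 11, on which the genes in general also had lower values in HER2 L755S. Over all tested genes the median log2 fold change was -0.19 on chromosome 1, -0.38 on chromosome 8 and -0.27 on chromosome 11, against 0.05 on the other nuclear chromosomes. The members on chromosome 11 were not lower in the main: the 6 on chromosome 11 had a median of 0.16 with 4 positive, the 5 on chromosome 1 one of -0.04 with 2 positive, and the 4 on chromosome 8 one of -0.28 with 0 positive. Of the 12 nuclear members with a negative value, 9 lie on those 3 chromosomes, and the others were SDHA, UQCRC1 and COX6B2. The 15 members there had a median of -0.04, with 0 that did not overlap and were higher. Of all tested genes 8.70% on chromosome 1, 7.97% on chromosome 8 and 9.94% on chromosome 11 did not overlap and were higher. The 47 members elsewhere had a median of 0.40, with 44 positive. Of these 47, 28 (59.6%) did not overlap and were higher, against 18.7% of all tested genes on the other nuclear chromosomes. The part of these chromosome-wide shifts in the differences of the members was not tested.

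**Figure D2:**
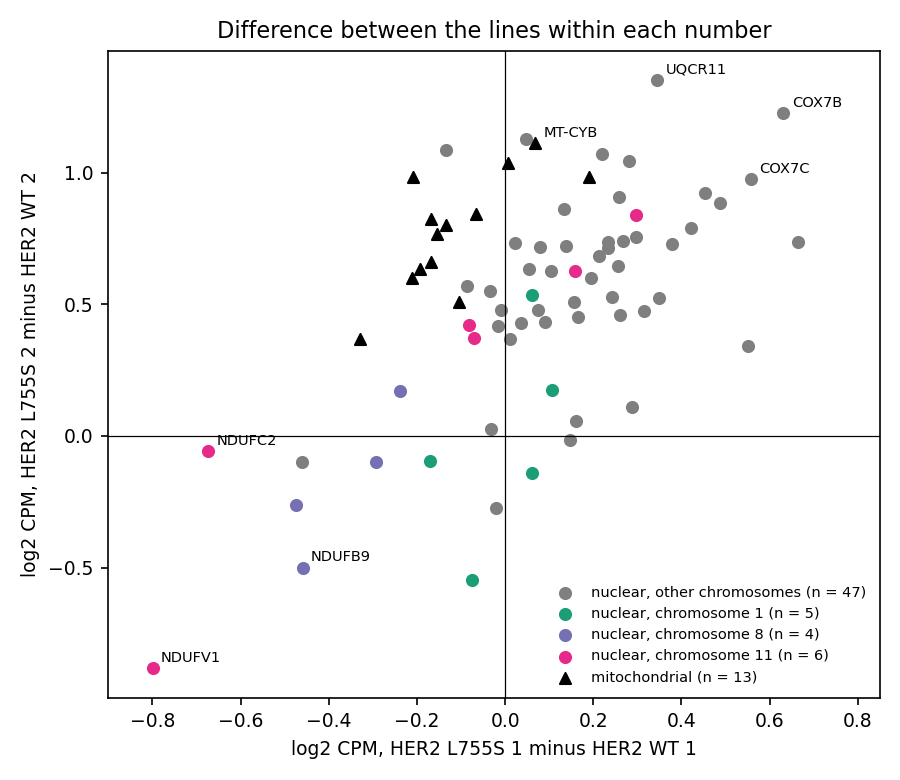
Difference between the lines in log2 CPM for each of the 75 tested members, within number 1 (horizontal axis) and within number 2 (vertical axis). The 13 mitochondrial members (triangles) lie between -0.33 and 0.19 in pair 1 and between 0.37 and 1.11 in pair 2, while NDUFV1 is negative in both.

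The mitochondrial members had opposite differences between the lines in the 2 numbers. Their median log2 difference was -0.15 in pair 1, with 3 of 13 positive, and 0.80 in pair 2, with 13 of 13 positive. The difference of the pairs was 0.61 to 1.19 (median 0.91), and with 1 library per line and number it could not be tested. Over all 4 libraries the median fold change was 0.57 on the log2 scale, 0 of the 13 genes were called, and the lines overlapped in every gene. MT-CYB, the cytochrome b of complex III, had the largest value, 0.87 (adjusted p = 0.81). Its level was 1435 and 3428 CPM in the HER2 WT libraries, against 1505 and 7411 CPM in those of HER2 L755S. Which library was left out set the direction: without HER2 L755S 2 the median was -0.69 and 2 genes were called lower (MT-ND5 and MT-ND4L, among 1.12% of all genes). Without HER2 L755S 1 it was 1.26 and 11 were called higher (1.23% of all genes), and without HER2 WT 2 it was 1.28 and 5 were called higher (0.922% of all genes).

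**Figure D3:**
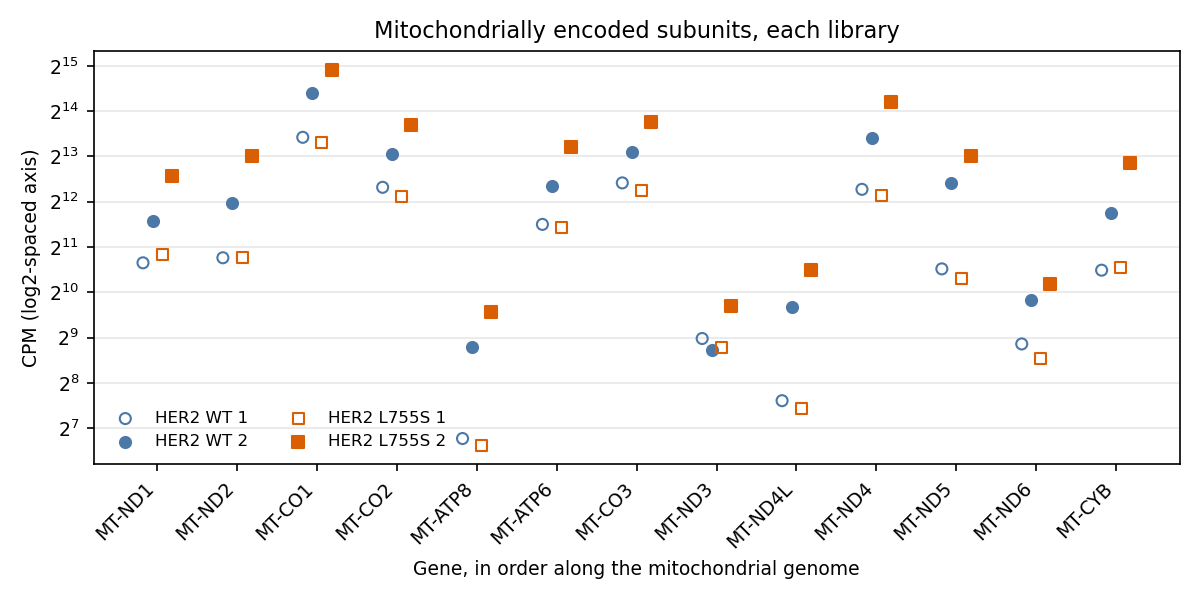
CPM of the 13 mitochondrial members in each library, on an axis spaced by log2, with genes in their order along the mitochondrial genome. In every gene except MT-ND3 both libraries numbered 2 (filled) lie above both numbered 1 (open), as in 24.2% of all tested genes.

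The libraries numbered 2 held more transcript of nearly every mitochondrial subunit. In a model with terms for line and number, 12 of the 13 genes were called higher in number 2 and 0 lower, where 8.26% of all tested genes were called higher and 9.94% lower. The median log2 fold change of the 13 was 1.32, with 0.99 within HER2 WT and 1.77 within HER2 L755S, beside -0.03 over all tested genes. Because the model has 1 residual degree of freedom, its calls lean on the spread shared across genes, and without a term for line 0 members were called, as were 0 of all 16538 tested genes.

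For the subunits of complex I, levels are given in the order HER2 WT 1, HER2 WT 2, HER2 L755S 1 and HER2 L755S 2. MT-ND1, which helps form the ubiquinone pocket, had 1607, 3058, 1835 and 6048 CPM. MT-ND2, a proton-pumping subunit, had 1736, 4037, 1744 and 8289 CPM. MT-ND4, another pumping subunit, had 4948, 10895, 4506 and 18963 CPM, and the log2 fold changes of these 3 genes by number were 1.32, 1.73 and 1.61. The largest values belonged to MT-ND4L and MT-ND5. MT-ND4L, a small subunit whose frame runs into that of MT-ND4, had 195, 817, 173 and 1447 CPM, a log2 fold change of 2.57 (SE 0.25, adjusted p = 3.9e-05). MT-ND5, the pumping subunit at the far end of the membrane arm, had 1465, 5472, 1264 and 8299 CPM, a log2 fold change of 2.31 (SE 0.26, adjusted p = 9.5e-05). MT-ND6 had 464, 906, 369 and 1170.0 CPM and a fold change of 1.31 on the log2 scale. MT-ND3 was the exception, with 504, 422, 437 and 834 CPM, a log2 fold change of 0.34 (SE 0.25, adjusted p = 0.37), and a lower value in HER2 WT 2 than in HER2 WT 1.

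Among the subunits of the later complexes, MT-CYB had a log2 fold change of 1.78 (adjusted p = 0.0011) from the levels given above. MT-CO1, which holds the site of oxygen reduction, stood at 10971, 21733, 10209 and 30955 CPM (log2 fold change 1.29). MT-CO2, which accepts electrons from cytochrome c, stood at 5103, 8518, 4464 and 13233 CPM (1.15), and MT-CO3 at 5460.4, 8749, 4857 and 13819 CPM (1.09). These 3 had the smallest called values among the mitochondrial members. The complex V subunit MT-ATP6, part of the proton channel, stood at 2893, 5244, 2765 and 9407 CPM (1.31). MT-ATP8, from the same transcript, stood at 109, 441, 98.1 and 752 CPM, a log2 fold change of 2.48 (SE 0.24, adjusted p = 3.8e-05). Its fold change was larger than that of MT-ATP6, with which it shares the sequence printed above.

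Ratios of counts were taken for 5 pairs of mitochondrial genes, picked after their fold changes by number were seen. Of these, 4 differed by more than 1.5 times between any library numbered 1 and any numbered 2. MT-ATP8 overlaps MT-ATP6 and MT-ND4L overlaps MT-ND4, so these 2 ratios do not compare separate transcripts. The effective length was only 15.5 to 17.2 bases for MT-ATP8 and 80.17 to 84.95 for MT-ND4L. The part of such short lengths in the ratios and in the fold changes of these genes was not tested. MT-ND4L counts were 3.93% (HER2 WT) and 3.85% (HER2 L755S) of those of MT-ND4 in number 1, against 7.50% and 7.63% in number 2. MT-ATP8 counts were 3.77% and 3.55% of those of MT-ATP6 in the libraries numbered 1, against 8.42% and 8.0% in those numbered 2. MT-ND5 counts were 13.3% and 12.4% of those of MT-CO1 in number 1 and 25.2% and 26.8% in number 2, while MT-ND3 lay the other way, at 4.60% and 4.28% in number 1 and 1.94% and 2.69% in number 2. The fifth, MT-CO2 to MT-CO1, differed little, at 46.5% and 43.7% in number 1, beside 39.2% and 42.7% in number 2. Each of the 5 ratios separated the numbers without overlap, the last by a narrow margin. With 2 libraries on each side an exact permutation test cannot go below p = 0.333, so none was run. The ribosomal RNAs of the mitochondria also rose in number 2. MT-RNR2 stood at 4394, 12454, 4488 and 20979 CPM and MT-RNR1 at 893, 1378, 984 and 2182 CPM (adjusted p = 0.00067 and 0.014), in libraries made from poly(A) RNA. In the fit with GC offsets, where these genes had no GC value and got no offset, MT-RNR2 was still called (adjusted p = 0.016) and MT-RNR1 was not (adjusted p = 0.12).

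The nuclear subunits had values in both directions by number. In the same model, 4 of 62 nuclear members were called higher and 9 lower, beside the 8.26% and 9.94% of all tested genes. The median log2 fold change was -0.13, with -0.22 within HER2 WT and 0.077 within HER2 L755S. The called members with lower values included 3 NDUFS genes of complex I, of which NDUFS7 and NDUFS8 encode core subunits that carry iron-sulfur clusters. NDUFS7 had 89.9 and 92.9 CPM in number 1 (HER2 WT first), and 21.4 and 46.9 CPM in number 2, a log2 fold change of -1.52 (SE 0.23, adjusted p = 0.0012). NDUFS8 had 55.9 and 68.7 CPM in the libraries numbered 1 and 19.0 and 34.0 CPM in those numbered 2, a log2 fold change of -1.28 (SE 0.20, adjusted p = 0.0013). NDUFS6 changed less, by -0.58 on the log2 scale (adjusted p = 0.044). In complex IV, COX5B, a subunit on the matrix side, had 129 and 132 CPM in number 1 and 45 and 74.8 CPM in number 2, a log2 fold change of -1.17 (SE 0.21, adjusted p = 0.0027). COX8A had 163 and 182 CPM in number 1 and 67.1 and 104 CPM in number 2, a log2 fold change of -1.05 (SE 0.19, adjusted p = 0.0035). NDUFV1 (-0.92), NDUFA11 (-0.75), NDUFB11 (-0.69) and UQCRC1 (-0.60) were the other 4.

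The nuclear members that rose in number 2 were UQCRB (log2 fold change 0.84, adjusted p = 0.011), COX7B (0.68, adjusted p = 0.028), NDUFB3 (0.61, adjusted p = 0.036) and COX7C (0.61, adjusted p = 0.044). COX7B and COX7C were also the complex IV genes with the largest positive values between the lines. In COX7B the order of the libraries was HER2 WT 1, HER2 WT 2, HER2 L755S 1 and HER2 L755S 2 from low to high, so the lines did not overlap and within each line number 2 was the higher. Of these 4, only UQCRB was called without scaling, with scaling from nuclear genes alone or without a filter, settings in which 5.02%, 5.18% and 2.72% of all genes were called higher.

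The direction of a nuclear member by number went with the GC content of its transcripts. Across the 62 genes Spearman's rho between GC content and the log2 fold change by number was -0.81, with -0.82 within HER2 WT and -0.70 within HER2 L755S, and across 13315 of the tested genes it was -0.78. These genes come from the same 4 libraries and are not independent replicates. The corresponding value for the difference between the lines was -0.08. Of the 7 members at 60% GC or above, 4 were called lower and the median was -0.75, beside -0.65 over all genes of that class, of which 44.9% were called lower. Of the 14 members under 45% GC, 4 were called higher and the median was 0.37, beside 0.44 over all genes of that class, of which 26.7% were called higher. The 41 members in between had a median of -0.20 with 5 called lower, beside -0.12 over all genes of that class, of which 5.74% were called lower.

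**Figure D4:**
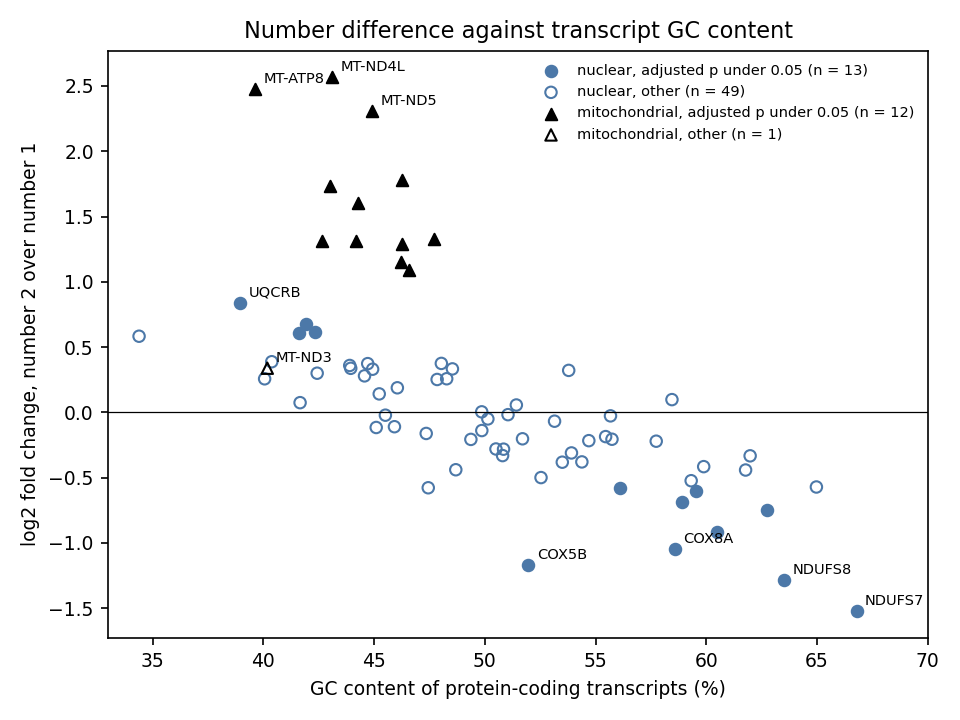
Log2 fold change, number 2 over number 1, against the GC content of protein-coding transcripts for the 62 nuclear (circles) and 13 mitochondrial (triangles) members, with called genes filled. The nuclear members run from UQCRB at 0.84 down to NDUFS7 at -1.52, and 12 mitochondrial members lie above the nuclear members of like GC content.

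The mitochondrial members other than MT-ND3 lay above this trend. Their GC content was 39.6% to 47.7%, and 19 nuclear members in that range had a median log2 fold change by number of 0.28 and a highest value of 0.68. All 4234 tested nuclear genes in that range had a median of 0.33, and 17.2% of them were called higher. With counts offset for GC content, a setting added after the data were seen in which 0.49% of all genes were called higher and 0.357% lower, the median of the mitochondrial members was 1.19. MT-ND4L (2.20), MT-ND5 (2.03), MT-ATP8 (1.96) and MT-CYB (1.57) were still called, with adjusted p of 0.0018, 0.0062, 0.0018 and 0.035, while the other 8 were not, at 0.06 to 0.25. COX5B was the only nuclear member still called (-1.08, adjusted p = 0.032). NDUFS7 and NDUFS8 moved to -0.64 and -0.60 (adjusted p = 0.16 and 0.15). GC content and the number of the library thus moved together, and what made the libraries differ in this way was not tested.

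The ratio of mitochondrial to nuclear subunit transcripts separated the numbers, and not the lines, in each complex. In complex I the summed TPM of the mitochondrial genes over that of the nuclear genes was 1.79 (HER2 WT) and 1.80 (HER2 L755S) in number 1, against 5.57 and 7.13 in number 2. In complex III it was 0.720 and 0.721 in number 1, against 1.76 and 3.15 in number 2. In complex IV it was 7.06 and 5.57 in number 1, against 15.3 and 14.4 in number 2. The mean log2 difference of number 2 from number 1 was 1.81 for complex I, 1.71 for complex III and 1.24 for complex IV. The mean log2 difference of HER2 L755S from HER2 WT was 0.18, 0.42 and -0.21 in the same order. No complex had lines that did not overlap, and each complex had numbers that did not.

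**Figure D5:**
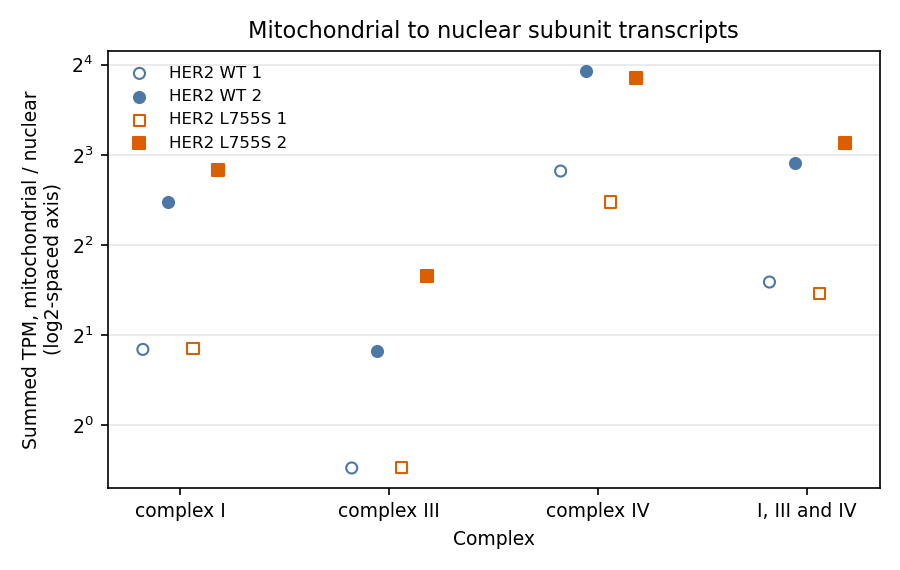
Ratio of summed TPM of mitochondrial over nuclear subunit genes in complexes I, III and IV and in all 3 together, with a point for each library on an axis spaced by log2. For the 3 complexes together the ratio is 3.01 and 2.76 in the libraries numbered 1 and 7.53 and 8.76 in those numbered 2.

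The promoters of the nuclear members were searched, on both strands, for letters that match factors known to bind promoters of respiratory genes. RefSeq windows of 300 bases on GRCh38.p14, from 250 before to 50 after a start site, matched 55 of the 67 nuclear members by symbol, 52 of them among those tested. Some members had several windows, and a member counted if any of them matched. The shares over all promoters are per window, so the units differ and favour higher member shares. The NRF1 consensus occurred in 12 of the 52 (23.1%), against 5.78% of 35116 promoters of the same length. The ETS letters CCGGAAG, which GABPA binds, occurred in 15 (28.8% against 10.3%), and the YY1 letters AANATGGC in 21 (40.4% against 6.58%). These matches do not overlap one another in the windows printed here, and a match is a description of the sequence only. The 4 windows shown belong to the genes with the largest positive values between the lines in complexes IV and III, the largest negative value between the lines, and the nuclear gene still called by number with GC offsets, with matches in capitals. They are chrX:77899218-77899517 (plus strand) for COX7B, chr19:1605413-1605712 (minus strand) for UQCR11, chr11:67606686-67606985 (plus strand) for NDUFV1 and chr2:97645812-97646111 (plus strand) for COX5B.
COX7B: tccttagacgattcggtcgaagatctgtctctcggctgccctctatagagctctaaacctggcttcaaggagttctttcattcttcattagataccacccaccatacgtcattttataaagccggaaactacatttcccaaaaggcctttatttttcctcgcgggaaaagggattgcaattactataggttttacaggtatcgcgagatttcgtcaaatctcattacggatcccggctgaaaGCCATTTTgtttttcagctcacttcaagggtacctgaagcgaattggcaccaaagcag
UQCR11: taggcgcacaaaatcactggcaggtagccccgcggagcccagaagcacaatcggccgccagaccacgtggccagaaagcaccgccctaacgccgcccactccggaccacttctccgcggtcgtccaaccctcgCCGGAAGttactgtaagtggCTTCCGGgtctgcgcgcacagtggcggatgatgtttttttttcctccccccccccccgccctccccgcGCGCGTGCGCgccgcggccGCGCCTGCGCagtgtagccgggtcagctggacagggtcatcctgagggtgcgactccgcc
NDUFV1: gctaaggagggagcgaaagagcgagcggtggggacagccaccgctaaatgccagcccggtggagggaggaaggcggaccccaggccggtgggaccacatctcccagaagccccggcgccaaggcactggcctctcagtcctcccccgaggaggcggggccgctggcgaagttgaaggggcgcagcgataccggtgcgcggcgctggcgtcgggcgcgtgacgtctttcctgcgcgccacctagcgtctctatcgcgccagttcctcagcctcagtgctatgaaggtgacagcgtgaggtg
COX5B: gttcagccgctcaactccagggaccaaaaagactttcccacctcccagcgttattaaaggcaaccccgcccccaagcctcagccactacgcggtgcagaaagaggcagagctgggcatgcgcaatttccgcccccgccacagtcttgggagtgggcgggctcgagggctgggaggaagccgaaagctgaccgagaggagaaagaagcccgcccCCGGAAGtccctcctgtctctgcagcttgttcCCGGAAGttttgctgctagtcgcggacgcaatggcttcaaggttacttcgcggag
The COX7B window holds a YY1 match on the opposite strand. That of UQCR11 has ETS and NRF1 matches, and that of COX5B has ETS matches. None of the 3 sets of letters was found in the window of NDUFV1. Of the factors themselves, GABPA rose in number 2, from 15.6 and 16.0 CPM in number 1 (HER2 WT first) to 29.8 and 29.2 CPM in number 2 (adjusted p = 0.0077), though not with GC offsets (log2 fold change 0.24, adjusted p = 0.64). YY1 stood at 90.3 to 119 CPM and was not called (adjusted p = 0.41), nor was NRF1, at 17.2 to 20.6 CPM (adjusted p = 0.67). In the whole list of 13 regulators 2 rose, GABPA and CREB1, and 2 fell, MYC (adjusted p = 0.025) and ESRRA (adjusted p = 0.033). These counts stand beside 8.26% of all tested genes called higher and 9.94% lower by number. With GC offsets 0 of the 13 were called.

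Other genes of the pathway were read from lists, whose counts stand beside 8.26% of all tested genes called higher and 9.94% lower by number, 0.738% and 0.949% between the lines, and 16.9% higher between the lines without overlap. The nuclear ATP synthase had 18 of 18 genes with a positive value between the lines, a median log2 fold change of 0.40 (0.27 in pair 1 and 0.64 in pair 2), 12 genes without overlap and 0 called. By number 2 of its genes rose, ATP5MJ and ATP5F1C, and 1 fell, ATP5F1D of the central stalk, from 67.2 and 54.9 CPM to 18.1 and 37.1 CPM (adjusted p = 0.0063). Of the other nuclear subunits outside the rule, 6 were tested, with 3 positive and 3 negative between the lines. Their log2 fold changes ran from -1.67 to 0.43, with 0 called. By number 0 of them rose and 2 fell, and with GC offsets 0 were called. Assembly factors of complex I had a median of 0.11 between the lines and those of complexes II to V 0.12, with 0 called in either list. By number 0 of the 17 factors of complex I were called, and of the 30 tested for the other complexes 1 rose and 3 fell. Of 20 genes of mitochondrial DNA maintenance and transcription 1 rose in number 2, MTERF3, and 0 fell, while POLRMT, the mitochondrial RNA polymerase, stood at 75.8 and 64.5 CPM in number 1 and 42.4 and 53.8 CPM in number 2 (adjusted p = 0.064). Of 18 genes of mitochondrial RNA processing 1 rose, PNPT1, a subunit of the RNA-degrading complex, from 35.2 and 49.1 CPM to 53.7 and 80.8 CPM (adjusted p = 0.023). The tricarboxylic acid cycle had a median between the lines of 0.03 and, by number, 1 of 18 genes higher and 2 lower. With GC offsets 0 genes of the ATP synthase, the assembly factors, the DNA and RNA lists and the tricarboxylic acid cycle were called by number, with adjusted p of 0.72 for ATP5F1D and 0.11 for PNPT1.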

How the data were processed

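Per the labels' protocols, 250 ng of total RNA from each of 4 MM134 samples was enriched for poly(A) RNA, prepared with TruSeq reagents and read on a NovaSeq. Groups and numbers came from the titles. Per the file headers, each deposited table is RSEM output, with an expected count per gene, an estimate that need not be whole, and TPM, both made by the authors. GRCh38, STAR and edgeR are named in the submitters' processing notes, without version or role. Annotation release and strand setting: not given in the sources used here. Both tables of number 2 are named as merged, with no word on what was combined. RSEM divides reads among similar genes, and 35 members had a count that was not whole in at least 1 library, so genes with close copies are uncertain.

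Expected counts were rounded. Of 60675 genes, 16538 passed filterByExpr of edgeR 4.0.16 in R 4.3.3. Lines were compared with its quasi-likelihood test (two-sided, TMM factors 0.937 to 1.04), with no term for the number, and numbers with a term for line. Adjustment was by Benjamini-Hochberg over all tested genes, at a threshold of 0.05. Tests were tried on simulated counts first. Differences within a pair or line are in log2 CPM with a prior count of 0.5. TPM was used only for levels and ratios. GC content is the median over a gene's protein-coding transcripts of GENCODE 29, and gene positions are also from it. Members without a test were left out of medians. Named genes were every mitochondrial member, called members, and in each complex the nuclear gene of highest TPM and those of largest difference between the lines. COX4I1, COX6C, CYC1, SDHA, NDUFB3 and others outside this rule were named after their values were seen. The members and lists were chosen with earlier results of these data known. Alternatives were DESeq2 size factors, no scaling, scaling from nuclear genes, no filter, at least 50 counts in 2 libraries, limma-voom (limma 3.58.1), DESeq2 1.42.0, an adjusted p of 0.01, a replicate block, no term for line, leaving out each library, and for ratios summed counts or medians. GC offsets were added after the data were seen. They take out, in each library, a smooth trend of log2 CPM on GC content fitted over nuclear genes, and genes without a GC value received none.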

Additional observations from a re-analysis of the deposited data

Results flagged for a closer look

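Several medians had opposite signs across the parts of the design that were compared, and none of these differences was tested, because each rests on 1 library per line and number. Between the lines, the median log2 difference of the 13 mitochondrial members was -0.15 in pair 1 and 0.80 in pair 2. For the mitochondrial genes of complex I it was -0.17 and 0.82, for those of complex IV -0.17 and 0.64, and for those of complex V -0.11 and 0.81. By number, the median log2 difference of the 62 nuclear members was -0.22 within HER2 WT and 0.077 within HER2 L755S. It was -0.32 and 0.052 for the nuclear genes of complex I, -0.23 and 0.089 for those of complex III, and -0.20 and 0.16 for those of complex IV.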

How the results depend on the processing

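Of the values recomputed for the main results, 142 kept their direction and stayed within 1.5 times the main count or within the spread, 25 moved further and 3 changed sign. The samples share a number whose meaning is not given, so pairing was not assumed in the main test between the lines. Same-numbered samples did deviate together, with a correlation of 0.42. With no term for the number, that test counted this shared deviation as spread within the lines. With the replicate number as a block, 6 nuclear members were called higher and 1 lower between the lines, and with the block and GC offsets again 6 and 1, where 4.38% and 6.16% of all tested genes were called with the block and 4.28% and 6.52% with both. These were COX7B (adjusted p = 0.0054), COX7C (0.018), UQCR11 (0.021), NDUFA4 (0.022), NDUFA3 (0.028) and NDUFB2 (0.029), and NDUFV1 (0.012), the same 7 genes in both. Leaving out each library in turn gave 0 to 1 nuclear member higher and 0 to 1 lower, 0 to 11 mitochondrial members higher and 0 to 2 lower, and a mitochondrial median of -0.69 to 1.28 (1.26 without HER2 L755S 1). Where a line had 1 library left, it was assumed to vary like the other line. By number, nuclear calls higher fell from 4 to 1 without scaling, with nuclear scaling and with no filter, and to 0 with no term for line, GC offsets or an adjusted p of 0.01. Nuclear calls lower fell from 9 to 5 with nuclear scaling and with an adjusted p of 0.01, to 1 with GC offsets and to 0 with no term for line. Mitochondrial calls higher fell from 12 to 4 with GC offsets, to 0 with no term for line, and were 8 with DESeq2. By number no fit was made without 1 library, and only the difference within the other line was taken. The nuclear median was then 0.07 without HER2 WT 1 and 0.13 without HER2 WT 2, both from HER2 L755S alone. It was -0.22 without HER2 L755S 1 and -0.23 without HER2 L755S 2, both from HER2 WT alone. These values repeat the differences within each line under other scaling, and no calls by number were made from them. The log2 ratio by number, as a median over members, was 1.45 for complex I and 1.78 for all 3 complexes, against 1.81 and 1.5. MT-ND3 by number was -0.15 with GC offsets. Within HER2 WT alone it was -0.25 without HER2 L755S 1 and -0.27 without HER2 L755S 2. Within HER2 L755S alone it was 0.93 without HER2 WT 1 and 0.99 without HER2 WT 2. Between the lines, leaving out each library gave -0.73 to 0.0055 for NDUFC2 (highest without HER2 WT 1), -0.12 to 0.031 for SDHC (highest without HER2 L755S 2), -0.093 to 0.39 for SDHD (lowest without HER2 L755S 2), and -0.71 to 0.27 for UQCRB (positive without HER2 WT 2 or HER2 L755S 1, at 0.27 and 0.22). The cause of these changes was not tested.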

Other observations

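Genes of the mitochondrial stress response, which cells switch on when protein folding or translation in mitochondria is disturbed, had calls by number only. Between the lines, in a test with no term for the number, 10 were positive and 2 negative. The median log2 fold change there was 0.32 and the highest 2.05, beside a median of -0.63 by number. Of 12 tested genes 1 rose and 7 fell in number 2, and 0 were called between the lines, beside 8.26% of all tested genes higher and 9.94% lower by number and 0.738% and 0.949% between the lines. GDF15, a secreted stress factor, stood at 5.80 and 8.13 CPM in number 1 (HER2 WT first), and 0.791 and 1.71 CPM in number 2 (log2 fold change -2.54, adjusted p = 0.00071). CHAC1, which degrades glutathione, stood at 5.46 and 24.8 CPM in number 1 and 1.93 and 5.92 CPM in number 2 (-1.81, adjusted p = 0.0010). TRIB3, a target of the same transcription factors, stood at 34.0 and 119 CPM in number 1 and 18.1 and 41.6 CPM in number 2 (-1.22, adjusted p = 0.0021). CHAC1 and TRIB3 also had higher values in the HER2 L755S library of each number, without a call between the lines (adjusted p = 0.19 and 0.16). The protease LONP1 stood at 178 and 217 CPM in number 1 and 96.5 and 96.9 CPM in number 2 (-1.02, adjusted p = 0.0035). With GC offsets 2 of the 8 were still called, GDF15 (-1.98, adjusted p = 0.016) and CHAC1 (-1.24, adjusted p = 0.046), while TRIB3 and LONP1 were not (adjusted p = 0.19 and 0.33).

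The proteins of the mitochondrial ribosome, which translates the 13 mitochondrial members, moved in both directions by number. In the large subunit 8 of 49 genes rose and 7 fell, and in the small subunit 1 of 32 rose and 4 fell, with medians of -0.09 and -0.02, beside the same 8.26% and 9.94% of all tested genes. MRPL41 stood at 76.0 and 81.2 CPM in number 1 and 23.6 and 52.8 CPM in number 2 (adjusted p = 0.0052), and MRPL1 at 29.6 and 31.2 CPM in number 1 and 42.7 and 70.6 CPM in number 2 (adjusted p = 0.011). With GC offsets 0 of these ribosomal proteins were called by number. Between the lines 34 of the 49 and 28 of the 32 genes were positive, with medians of 0.22 and 0.18 and 0 called. SLIRP, which binds and stabilises mitochondrial transcripts, stood at 32.4 and 36.0 CPM in the HER2 WT libraries, against 57.1 and 89.6 CPM in those of HER2 L755S (log2 fold change 1.10, adjusted p = 0.18).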
